A study of Mus musculus with 2 samples.

Results

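The proteasome genes were examined in bone marrow cells of mice labelled Control and Ago2 Hem KO. They were chosen by name: every probe whose gene symbol begins with Psma, Psmb, Psmc, Psmd, Psme, Psmf or Psmg. The rule found 86 of the 45281 probes on the array and 49 of the 19057 genes named there. Of these, 42 genes were detected on both arrays through 68 probes. The other 7 genes were detected on neither array, and 0 genes on 1 array only. The cells were lineage- Sca1+ c-Kit+ (LSK) cells, a bone marrow fraction that holds blood stem cells and early progenitors, from the C57BL/6J strain. A sample labelled Control was compared with a sample labelled Ago2 Hem KO, each on 1 Illumina bead array of biotin-labelled RNA. Below, 'without Ago2' stands for the Ago2 Hem KO label. The age and number of the animals, the animals' sex, the meaning of Hem and the way Ago2 was removed are not given in the sources used here. With 1 array per genotype there was no replicate error and no test, so every fold compares these 2 arrays.

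The proteasome degrades proteins tagged with ubiquitin. Its core is a barrel of α and β rings, with the proteolytic sites on the β subunits inside. A regulatory cap sits on the barrel. Its base, a ring of ATPases with scaffold proteins, unfolds the substrate and feeds it into the core, while its lid removes the ubiquitin chain. In blood cells, and more so under interferon, the catalytic β subunits can be replaced by immunoproteasome subunits that favour peptides for MHC class I. Dedicated chaperones assemble the core and the base. Ago2, the targeted gene, encodes an Argonaute protein that carries microRNAs to messenger RNAs.

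The Ago2 probes read 288, 226 and 106 in the control. In the Ago2 Hem KO sample they read 180, 181 and 103. After normalization these were differences of -1.29, -0.79 and -0.44 on the log2 scale. All 3 were lower, as the label implies, although the probes were not placed on the gene, so they do not check the deletion. Signals are mean bead intensities in arbitrary units, and detection here means a detection p-value under 0.01. Detected probes made up 32.8% of the control array and 34.4% of the Ago2 Hem KO array, which was also brighter, with an upper-quartile signal of 135 against 121. Differences are Ago2 Hem KO minus Control in normalized log2 signal, taken from a gene's brightest probe among those detected on both arrays. Over all 8212 detected genes the median difference was -0.05, and the range from the 5th to the 95th percentile was -0.45 to 0.41. Of the LSK and early progenitor markers, Kit, Cd34, Gata2, Meis1 and Myb were detected on both arrays and Flt3 on neither, while Ly6a (Sca1) had no named probe. The RNA also carried bright signals of mature neutrophil genes, 7 of 8 of which were detected on both arrays. A lower signal from fewer cells of a type and one from less RNA per cell cannot be told apart in such samples.

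Most proteasome genes, like most detected genes, differed little, and the members that stood out were mainly subunits of the lid. The lid was summarized apart from the rest of the cap only after the values were seen. Of the 42 detected members, 35 differed by less than 0.32 on the log2 scale, the bound used here for a difference in either direction. So did 6489 of all 8212 detected genes. Another 6 members were past the bound upwards, higher without Ago2, where 8.26% of all detected genes were. These were the lid genes Psmd8, Psmd14, Psmd11 and Psmd6, the base ATPase gene Psmc1 and the testis α subunit gene Psma8. The count was 3 without background correction, where Psmd8, Psmd14 and Psmd11 remained, and 10 with scaling to the same median. The catalytic subunit gene Psmb7 was the 1 member past it downwards, where 12.7% of all detected genes were. At 2-fold, Psmd8 was the 1 member that was higher, against 0.304% of all genes. The members' median was 0.00 and 22 of them (52.4%) lay above 0, compared with 41.8% of all genes. That share depended on scaling. With the arrays scaled to the same median, 39 members (92.9%) and 75.8% of all genes lay above 0. With cyclic loess, 30 members (71.4%) and 48.4% of all genes did.

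**Figure D1:**
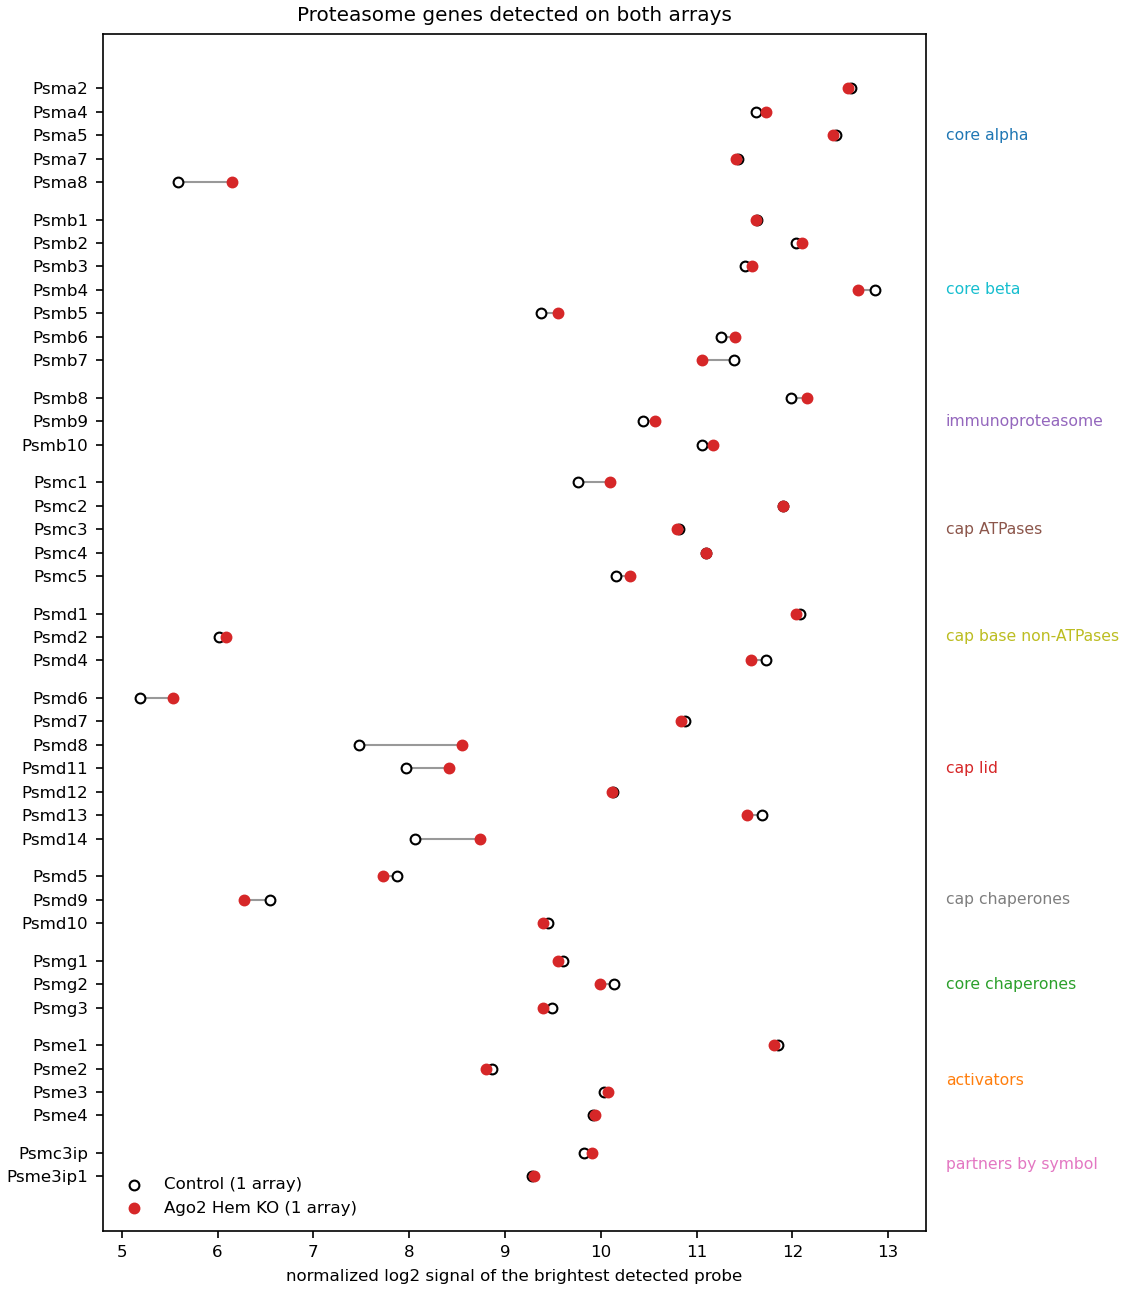
Normalized log2 signal (x axis) of each proteasome gene detected on both arrays, by the role of its product, with an open dot for the control array and a red dot for the Ago2 Hem KO array. The dots lie close together for most genes and furthest apart for Psmd8 (7.48 and 8.55), while signals of different genes are not comparable.

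Members of the lid showed the widest range. Psmd8, which encodes a lid subunit, had a signal of 232 in the control and 479 without Ago2. It was 2.10-fold higher (log2 difference 1.07), rank 20 from the top among all detected genes. Its other probe was not detected on either array (85.6 and 85.8). The difference was under 2-fold without background correction (0.84), with an offset of 50 (0.95) and in the authors' value table (0.81). It stayed past the bound of 0.32 in all 9 alternatives tried. Those that change the detection filter or average the detected probes read the same probe here, so they returned 1.07 by construction.

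Psmd14 encodes the metalloprotease that cleaves the ubiquitin chain from a substrate as it enters the proteasome. Its brighter probe read 312 in the control and 537 without Ago2, 1.61-fold higher. Its dimmer probe gave nearly the same picture, at 221 and 342 (log2 differences 0.69 and 0.57). Psmd11, whose product clamps lid, base and core together, read 298 and 446, 1.37-fold higher. A second, dim Psmd11 probe at 100 and 115 differed by 0.25. Both genes stayed past the bound in all 9 alternatives, from 0.56 to 0.90 for Psmd14 and from 0.35 to 0.68 for Psmd11. Changes of the detection filter kept the same probe of each gene, so they repeated its reported difference (0.69 and 0.45). Psmd6, another lid subunit gene, was close to background at 103 and 122. Its difference of 0.35 was 0.13 without background correction and 0.11 in the authors' value table.

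The remaining lid genes lay lower. Psmd7 encodes the inactive partner that pairs with the Psmd14 protease, and its probes disagreed. The brightest read 1806 and 2044, a difference of -0.04. The second read 805 and 1320, a difference of 0.52, and the third 136 and 200, a difference of 0.66. Hence Psmd7 counted as within the bound by its brightest probe and lay at 0.38 by the mean of its probes. The lid subunit genes Psmd12 (1092 and 1277) and Psmd13 (3106 and 3260) differed by -0.01 and -0.15. Psmd3 was not detected on either array. The lid's median was 0.35 over 7 detected members (0.13 without background correction and 0.11 in the authors' value table), and 4 of the 7 were past the bound upwards. Of the other 35 detected members, 2 were, and of all detected genes 8.26%. Because the lid was set apart after the values were seen, this contrast only describes these arrays. The cap as a whole, lid included, had a median of 0.01.

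**Figure D2:**
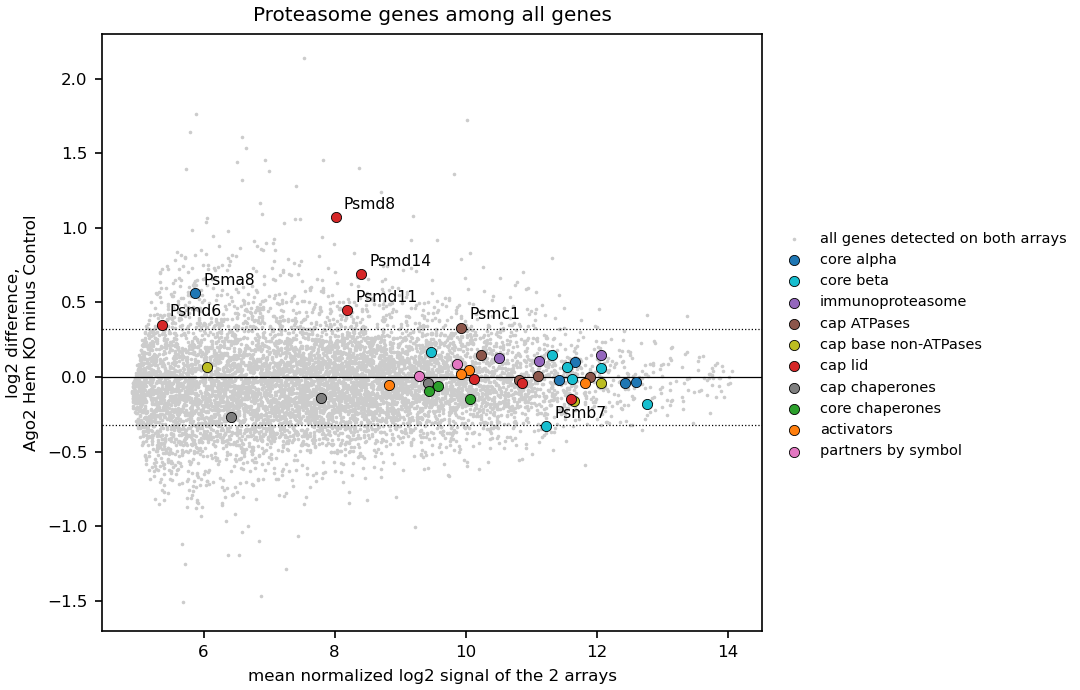
Log2 difference between the arrays (y axis) against mean normalized log2 signal (x axis) for all detected genes (grey) and for the proteasome genes coloured by role, with dotted lines at a difference of 0.32 either way. Psmd8, Psmd14 and Psmd11 lie above the line at middling signal, while most members cluster near 0 at high signal.

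Signal level moved with these differences. With all detected genes split by signal into 3 equal bins, 34 members lay in the brightest bin, 4 in the middle and 4 in the dimmest. Differences were wider among dim genes. The share of genes past the bound upwards was 6.07% in the brightest bin, 8.59% in the middle and 10.1% in the dimmest. Among the members, 1 of 34, 3 of 4 and 2 of 4 did so. The middle bin held Psmd8, Psmd14, Psmd11 and the base chaperone gene Psmd5, and the dimmest held Psma8, Psmd2, Psmd6 and Psmd9. The part that signal level played in the lid's differences was not tested.

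The lid members that could be matched shared a short promoter element. Of the 49 members, 41 had a promoter entry, covering 250 bases before to 50 after the transcription start in RefSeq's GRCm38.p6 annotation. The letters CGGAAG, the core bound by E26 (ETS) family factors, were searched on both strands, where they read CTTCCG on the other strand. They occurred in 24 of the 41 members (58.5%), against 18.8% of all 27025 genes in that table. The table also holds genes not detected here, and for no motif was a share over the detected genes taken. Of the lid genes detected on both arrays, 6 had an entry and all 6 held the core. Psmd7 had none. The core was not limited to the genes that differed: it was in 5 of 5 members with an entry that were past the bound upwards, and in 16 of 30 other detected members. The letters are a description of the sequence, and binding was not measured.

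The upstream 250 bases of the 4 lid genes that were higher, and of Psmd12 and Psmd13, which were not, are shown because their cores can be compared directly. Each runs 5′ to 3′ on the strand of its gene and ends at the base before the start, and capitals mark the core. They lie at chr7:29180674-29180923 (minus strand), chr2:61711444-61711693 (plus strand), chr11:80428365-80428614 (plus strand), chr14:14120946-14121195 (minus strand), chr11:107479278-107479527 (plus strand) and chr7:140882144-140882393 (plus strand).
Psmd8: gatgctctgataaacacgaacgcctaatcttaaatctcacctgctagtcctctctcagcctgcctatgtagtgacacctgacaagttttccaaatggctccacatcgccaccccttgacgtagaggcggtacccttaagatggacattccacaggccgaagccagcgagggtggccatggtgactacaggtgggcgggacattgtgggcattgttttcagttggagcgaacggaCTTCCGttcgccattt
Psmd14: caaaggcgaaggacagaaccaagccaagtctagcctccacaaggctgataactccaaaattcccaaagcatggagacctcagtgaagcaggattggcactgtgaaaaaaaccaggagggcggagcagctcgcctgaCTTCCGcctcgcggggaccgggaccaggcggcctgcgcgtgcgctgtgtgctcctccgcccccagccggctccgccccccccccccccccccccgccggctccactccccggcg
Psmd11: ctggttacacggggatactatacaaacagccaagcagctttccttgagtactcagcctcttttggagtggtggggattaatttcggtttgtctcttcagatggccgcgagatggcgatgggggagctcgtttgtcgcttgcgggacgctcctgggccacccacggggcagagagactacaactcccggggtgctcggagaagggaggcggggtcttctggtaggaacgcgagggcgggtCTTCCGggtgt
Psmd6: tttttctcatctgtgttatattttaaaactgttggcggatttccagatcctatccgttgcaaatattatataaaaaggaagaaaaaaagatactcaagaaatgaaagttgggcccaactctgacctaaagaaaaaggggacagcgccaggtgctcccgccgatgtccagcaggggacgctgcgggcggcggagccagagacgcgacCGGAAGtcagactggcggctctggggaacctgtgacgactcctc
Psmd12: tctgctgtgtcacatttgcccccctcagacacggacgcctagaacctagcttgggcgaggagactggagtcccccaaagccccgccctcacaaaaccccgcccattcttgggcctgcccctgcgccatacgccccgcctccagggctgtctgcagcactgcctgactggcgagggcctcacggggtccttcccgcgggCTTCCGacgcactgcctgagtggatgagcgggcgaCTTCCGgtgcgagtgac
Psmd13: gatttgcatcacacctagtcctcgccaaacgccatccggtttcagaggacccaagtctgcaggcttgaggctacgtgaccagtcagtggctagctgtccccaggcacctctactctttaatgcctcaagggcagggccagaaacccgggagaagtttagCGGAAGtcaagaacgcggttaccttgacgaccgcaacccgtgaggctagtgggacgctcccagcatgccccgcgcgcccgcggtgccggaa

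In Psmd8 and Psmd11 the core begins 16 and 11 bases before the start. Psmd12, which differed by -0.01, has one in the same orientation 17 bases before the start and another 52 bases before it. The core begins 44 bases before the start in Psmd6 and 114 in Psmd14. Psmd13 carries a core 91 bases upstream, and a second one begins 5 bases upstream and crosses the start. A pair of other motifs was near background. TGACNNNGC, the antioxidant response element through which the proteasome regulator Nfe2l1 acts, was in 6 of 41 members (14.6%), among them the catalytic genes Psmb5 and Psmb6, and in 14.0% of all genes. CCAAT was in 16 members (39.0%), against 41.1% of all genes. The interferon element, GAAA followed by any 2 bases and GAAA again, was in 5 members (12.2%), against 3.99% of all genes. These were Psmb3, Psmd4, Psmd9 and Psme1, none of them past the bound, and Psmg4, which was not detected on either array. The catalytic immunoproteasome genes were not among the 5. Each motif was searched on both strands.

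In the base of the cap, the ATPase gene Psmc1 read 865 in the control and 1257 without Ago2. This was 1.26-fold higher (0.33), at the edge of the bound, and 0.31 without background correction. The ATPase genes Psmc2, Psmc3, Psmc4 and Psmc5 lay between -0.02 and 0.15, and the Psmc5 probes differed in sign (0.15 and -0.09). The ATPase gene Psmc6 was not detected on either array. The scaffold gene Psmd1 read 4086 and 4600, a difference of -0.04, while its other probes differed by 0.16 and 0.23. Psmd2, the other large scaffold, had dim probes (128 and 146 on the brighter) and a difference of 0.07. Psmd4, a ubiquitin receptor of the cap, read 3202 and 3335, a difference of -0.16. The 15 detected cap genes together, lid included, had a median of 0.01, with 9 above 0 and 5 past the bound upwards.

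The core was flat apart from its ends. The 12 detected core genes had a median of 0.03, with 6 above 0 and 6 below. Of the α subunits, which form the outer rings and the gate of the barrel, Psma2, Psma4, Psma5 and Psma7 lay between -0.04 and 0.10. Psma2 read 5879 and 6673, and Psma4, the highest of these 4, read 2983 and 3713. Both signals are larger on the brighter Ago2 Hem KO array, and normalization brought the pairs to within 1.07-fold. Psma8, known as the testis form of an α subunit, was barely above background at 113 and 150. Its probes differed by 0.56 and 0.39, and the larger difference was 0.26 without background correction and 0.23 in the authors' value table.

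The catalytic core subunits went different ways. Psmb7, the trypsin-like subunit, had 4 detected probes, and each was lower after normalization. They read 2566 and 2383, 2041 and 1998, 1617 and 1576, and 695 and 740, the control first. Normalized differences were -0.33, -0.27, -0.25 and -0.14. The brightest probe was thus 1.26-fold lower, and the gene was within the bound with cyclic loess (-0.29), with scaling to the same median (-0.14) and by the mean of its probes (-0.25). Psmb5, the chymotrypsin-like subunit, read 681 and 882, a difference of 0.17. Psmb6, the caspase-like subunit, read 2327 and 2962 on its brighter probe (0.15), and the other differed by 0.12. Among β subunits without a proteolytic site, Psmb1, Psmb2 and Psmb3 lay between -0.01 and 0.07. Psmb4, at 6992 and 7074, was lower at -0.18.

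The immunoproteasome genes were slightly higher, each by less than the bound. Psmb8, which takes the place of Psmb5, read 3816 and 4916, a difference of 0.15. Its dimmer probe went the other way, at 657 and 689 with a difference of -0.16. Psmb9, which replaces Psmb6, read 1359 and 1708, a difference of 0.13. Psmb10, which replaces Psmb7, read 2026 and 2548 on one probe and 1917 and 2420 on the other, differences of 0.11 and 0.12. Their median was 0.13 over 3 genes. It lay 0.15 to 0.18 above the median of all genes in the 10 settings, the reported one included. Changes of the detection filter read the same probes, so they repeated the 0.13 by construction. By the mean of its probes, Psmb8 lay at -0.01. Set beside the subunits they replace, Psmb8 and Psmb5 differed by nearly the same amount (0.15 and 0.17), as did Psmb9 and Psmb6 (0.13 and 0.15). Psmb10 and Psmb7 had opposite signs (0.11 and -0.33). The thymic subunit gene Psmb11 was not detected on either array.

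Genes that act with the immunoproteasome in the interferon response and in peptide presentation were read from a separate list. Of 14 detected, 12 lay above 0, where 41.8% of all genes did, with a median of 0.11. By the brightest probe, Nlrc5, the transactivator of MHC class I genes, was the 1 gene past the bound upwards, at 159 and 222 (0.46). None was past it downwards. A count of 1 in 14 is near the 8.26% of all genes past it upwards, and 12.7% were past it downwards. The peptide transporter gene Tap1 read 277 and 353 (0.18). B2m, the light chain of MHC class I, was lowest by the brightest probe, at 8392 and 8726 (-0.15). Dimmer probes went past the bound for Tapbp (-0.85, with 0.03 on the brightest), Irf1 (0.53, with 0.18) and H2-D1 (0.33, with 0.11).

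The proteasome activators, which open the core without ATP, did not stand apart. Psme1 and Psme2 encode the interferon-inducible activator ring. Psme1 read 3439 and 3935 and Psme2 497 and 555, with differences of -0.04 and -0.05. Psme3, the nuclear activator, lay at 0.05 with signals of 1032 and 1243. Psme4, an activator linked to histone turnover, read 956 and 1133, a difference of 0.02. Psmf1, an inhibitor of the core, had no named probe.

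The assembly chaperone genes all lay slightly below 0 on their brightest probes, as did 4768 of all 8212 detected genes. Their median was -0.11 over 6 genes, against -0.05 for all genes, and none was past the bound. Psmd9, a chaperone of the ATPase ring, was lowest at -0.27, from signals of 154 and 157. Its second, dimmer probe read 105 and 120 and went the other way, at 0.18. The further ATPase ring chaperones Psmd5 (282 and 304) and Psmd10 (710 and 804) differed by -0.14 and -0.04. Psmg1, Psmg2 and Psmg3, which assemble the core, differed by -0.06, -0.15 and -0.09. The second Psmg2 probe read 352 and 482, a difference of 0.28, and the third lay at -0.05. Psmg4 was not detected. Against the median of all genes the chaperones were lower by 0.01 to 0.07 in the 10 settings. With scaling to the same median, their own median turned to 0.10 while that of all genes was 0.16.

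Some genes carried the prefix without being proteasome subunits. Psmc3ip, a meiotic recombination factor named for its binding to an ATPase subunit, read 899 and 1113 (0.09). Psme3ip1, named for binding the nuclear activator, read 642 and 752 (0.01). Besides Psmb11, Psmc6, Psmd3 and Psmg4, the members on neither array were the core α genes Psma1, Psma3 and Psma6. The brightest probe of each of these 7 genes lay between 79.2 and 94.7 in the control, where background lies. A probe at background sets no level for its gene.

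**Figure D3:**
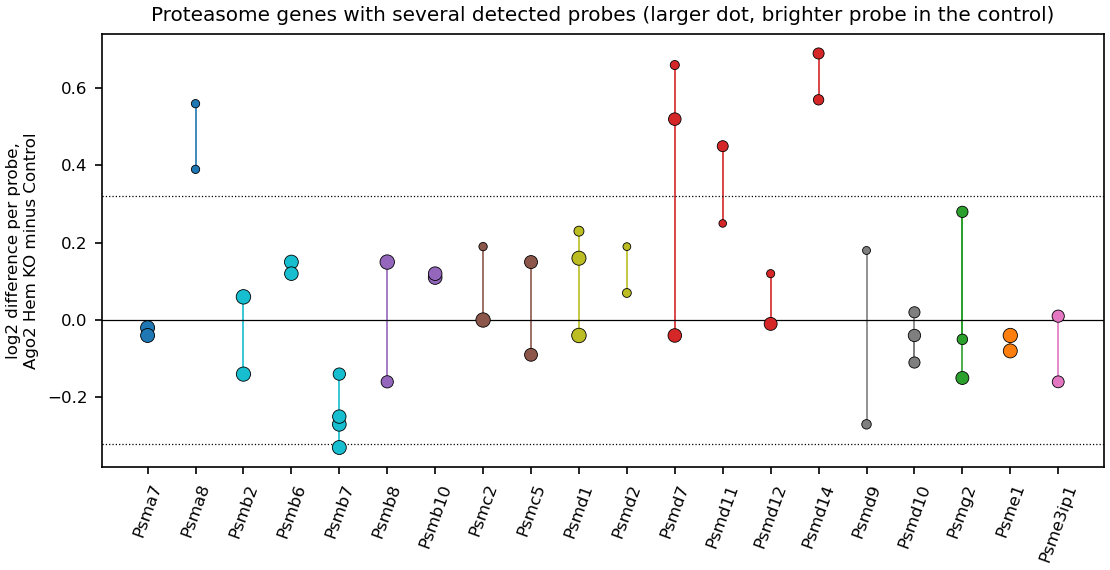
Log2 difference (y axis) of each detected probe of the 20 proteasome genes with several detected probes, coloured by role, larger dots for probes brighter in the control, dotted lines at a difference of 0.32 either way. The probes of Psmb7 and Psmd14 keep together on their side of 0, and those of Psmd7 spread from -0.04 to 0.66.

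Probes of a gene on the same pair of arrays show how well probes agree, and hold none of the variation between animals or arrays. Over the 20 members with a second detected probe, the brightest and the next brightest differed by a median of 0.17, close to the 0.18 of 3016 such genes in all. They had the same sign in 10 of the 20 members, against 63.8% of all such genes. The widest gaps were those of Psmd7 (0.56), Psmd9 (0.45) and Psmg2 (0.42). The Psmd8 difference of 1.07 rests on 1 detected probe. That of Psmd14 was seen with 2 probes.

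Among pathway genes with other names, several whose products bind the cap were higher. The list was made with earlier results of these data known, so its counts only describe these arrays. Of its 24 genes 15 had a named probe. Of these, 12 were detected on both arrays, 10 of them above 0, with a median of 0.26. Of all detected genes, 41.8% lay above 0. Of the 12, 5 were past the bound upwards and none downwards, against 8.26% and 12.7% of all genes. Uchl5, a deubiquitinase of the cap, read 944 and 1803, 1.67-fold higher, and its 4 probes differed by between 0.21 and 0.79. Ecpas, an adaptor that holds cap and core together, read 176 and 255 (0.49). Usp14, the other cap deubiquitinase, was dim at 127 and 163 (0.39). Sem1, a small lid subunit outside the naming rule, read 1773 and 2599 (0.35). Nfe2l2, a transcription factor of the oxidative stress response, read 162 and 223 (0.41), and its relative Nfe2l1, which drives proteasome genes, 410 and 537 (0.20). Pomp, the maturation factor of the core, and Vcp, an unfoldase upstream of the proteasome, differed by -0.10 and -0.17.

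Markers of the sorted cells and of other cells moved between the arrays as well. Of 9 erythroid genes with a probe, 7 were detected on both arrays. All 7 were higher, where 41.8% of all detected genes were, and Hba-a1 was highest at 2.14. The erythroid signals summed to 2117 in the control and 5119 without Ago2. The 5 detected LSK and early progenitor genes were all higher too, by 0.14 to 0.46, with sums of 3972 and 5453. Of mature neutrophil genes, 6 of 7 were lower, where 4768 of all 8212 detected genes were, and the sums were 24228 and 26571. The median of the 7 was -0.07, against -0.05 for all genes. Only Ltf (853 and 533) and Retnlg (137 and 109) were past the bound downwards. The other lower genes lay between -0.08 and -0.01, and S100a9 was higher at 0.25. Dendritic cell genes summed to 1337 and 1383, B and plasma cell genes to 1171 and 1301, and T and NK cell genes to 7320 and 6674. These sums join opposite differences. Mzb1 and Pou2af1 were higher (1.38 and 1.39), Igll1 and Cd79b lower (-0.79 and -0.41), and Vpreb3 lay at -0.03. Dendritic cell genes ran from -0.64 to 0.22, and T and NK cell genes from -0.70 to 0.45. Nkg7 alone gave 7038 and 6366 of the T and NK cell sums. Macrophage genes summed to 1020 and 1299, over the 2 detected on both arrays, while C1qa, C1qb and C1qc passed detection without Ago2 only. These sums are of signals not normalized between arrays. Adgre1, Itgax, Xcr1, Siglech, Ms4a1, Cd3e, Cd3g, Cd8a, Gzmb and Klrb1c were on neither array. The part of these cells in the lid differences was not tested.

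**Figure D4:**
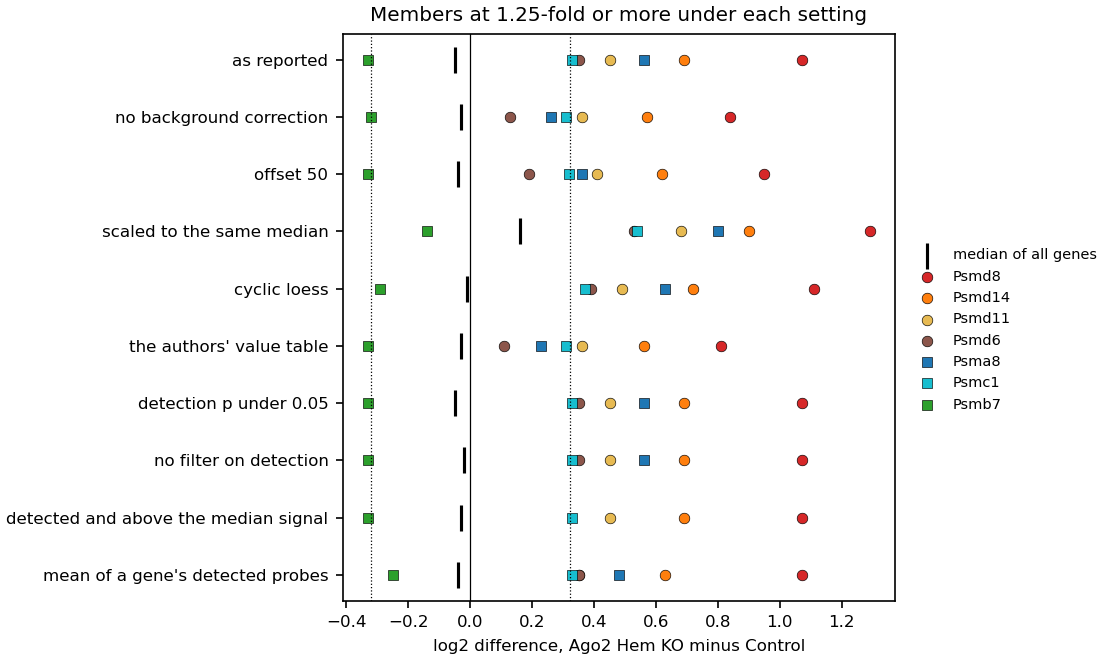
Log2 difference (x axis) of the 7 proteasome genes past the bound, under the reported setting and 9 alternatives (y axis), with black ticks for the median of all genes and dotted lines at 0.32 either way. Psmd8, Psmd14 and Psmd11 stay right of the upper line under each setting, and Psmd6, Psma8 and Psmc1 fall below it without background correction.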

How the data were processed

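RNA of 2 samples was measured on Illumina bead arrays. The authors deposited a mean bead intensity per probe and array, linear and not normalized between arrays, and, per the file headers, a detection p-value against negative controls. They also deposited a value table of linear intensity whose columns share a median of 86.2, and how it was made is not stated. The submitters' processing notes name BeadStudio without a version.

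From the intensities, background was corrected by normexp with limma 3.58.1 in R 4.3.3, using the detection p-values. After an offset of 16, the arrays were quantile normalized together and put on the log2 scale. The offset shrinks differences of dim probes, and quantile normalization removes a change shared by most genes. Probes were named by the platform annotation, and symbols updated by gene identifier with RefSeq's GRCm38.p6 table (34807 of 34885 named probes matched). Probes with several genes (18) were not named. Detection was a p-value under 0.01.

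No test was run, with 1 array per group. The reported setting was checked on simulated arrays with known folds. The error allowed there was wider than the bound of 0.32, so that check does not bear on calls at the bound. The members and lists were chosen with earlier results of these data known. Values are given for the catalytic and immunoproteasome members, the highest and lowest member of each role, members past a bound of 0.32 (log2) and those with disagreeing probes. Further genes were named after their values were seen. Alternatives were the authors' value table, an offset of 50 or no background correction, cyclic loess or scaling to the same median, and, for the filter, a detection p-value under 0.05, none, or detection with a signal over the median. Averaging the detected probes of a gene was tried as well.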

Additional observations from a re-analysis of the deposited data

How the results depend on the processing

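None of the 7 members past the bound of 0.32 changed sign under the 9 alternatives, and 50 of their 61 values there were still past it in the reported direction. Psmd8, Psmd14 and Psmd11 were so in every alternative. For these 7 members, changes of the detection filter either dropped the gene or repeated its reported value, as the same probe was read. The count of members past the bound upwards was 6 as reported. It was 3 without background correction and 3 in the authors' value table, where 3.90% and 3.51% of all genes were. It was 10 with scaling to the same median, where 25.4% of all genes were. The count past it downwards was 1 as reported, 0 with that scaling, with cyclic loess and by the mean of a gene's probes, and 2 with no detection filter, which adds genes at background. Scaling to the same median moved the median of all genes from -0.05 to 0.16. The medians became 0.20 for all members, 0.20 for the core, 0.21 for the cap, 0.31 for the immunoproteasome, 0.20 for the activators and 0.10 for the chaperones, and 92.9% of members lay above 0, against 71.4% with cyclic loess. The lid median of 0.35, added after the data were seen, ran from 0.11 in the authors' value table to 0.53 with that scaling, and was 0.13 without background correction. The causes of the changes not named here were not tested. Near background (Psma8, Psmd2, Psmd6, Psmd9) the fold rests on the correction. No paired analysis was possible because each group has 1 array.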

Other observations

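The lid shares its architecture with the COP9 signalosome, which removes Nedd8 from cullin ligases, and with translation initiation factor 3. Both complexes were read after the lid's values had been seen. All 10 signalosome genes were detected, with a median of 0.04 and 6 of them above 0, where 41.8% of all detected genes were. Cops9, the smallest subunit, was the 1 gene higher by 0.32 or more, at 1719 in the control and 2895 without Ago2 (0.57). Cops5, the signalosome's counterpart of Psmd14, read 1020 and 1415 (0.26), and Cops6, the counterpart of Psmd7, was lowest at 1818 and 1916 (-0.14). Of 9 detected subunit genes of initiation factor 3, 5 lay above 0, with a median of 0.02. Eif3a was the 1 gene higher by 0.32 or more, at 544 and 846 (0.48), and Eif3b was lowest at 1292 and 1234 (-0.31). A count of 1 in each complex is near the 8.26% of all detected genes that were higher by as much.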
